A study of Mus musculus with 3 samples.

Results

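Glypicans and syndecans are the heparan sulfate proteoglycans of the cell surface. The 6 mouse glypican genes (Gpc1 to Gpc6) and the 4 syndecan genes (Sdc1 to Sdc4) were chosen by symbol. Their values were not used in the choice, although earlier results of these data were known. They made up 10 of 46983 gene rows. All 10 were found, each on 1 row. They were measured by bulk RNA sequencing of cells sorted from microdissected mouse leptomeninges, the pia-enriched fraction of the thin inner membranes of the brain. The study holds 3 libraries, all from vehicle-treated mice, numbered 1 to 3 as in the labels. The vehicle's purpose, the strain, sex and age of the mice, the sorting gate, and whether each library came from its own animal were not stated. The spread between libraries may therefore be technical, and p-values measure only that spread. With 1 group there was no treatment comparison, and the comparisons below are between libraries and between genes.

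A glypican is a compact protein held on the outer membrane by a glycosylphosphatidylinositol lipid anchor, with its heparan sulfate chains attached close to the membrane. A syndecan crosses the membrane once, carries its chains far from it, and has a short cytoplasmic tail that binds scaffold proteins and kinases. The chains of both hold growth factors, morphogens and chemokines at the cell surface, where they act as coreceptors or shape the spread of the ligand.

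The libraries held between 21002860 and 28704952 gene counts. Levels are given as counts per 1000000 of the scaled library size (CPM), and, wherever genes are compared with each other, as CPM per kilobase of annotated exon. Markers of fibroblasts were abundant: 6 of 6 were counted in every library, with a summed level of 3125, 3861 and 3315 CPM per kilobase in libraries 1, 2 and 3. The 8 leptomeningeal fibroblast markers summed to 696, 575 and 678 CPM per kilobase, but their median was 9.67. Slc47a1 (845, 1238 and 1053 CPM) and Ptgds (648, 239 and 517 CPM) led, while Slc22a6 stood at 2.98, 3.36 and 2.08 CPM. Libraries differed in transcripts of other cells. Macrophage and microglial markers summed to 8.34, 105 and 305 CPM per kilobase, choroid plexus epithelial markers to 41.6, 1657 and 2585, and erythroid markers to 1047, 258 and 430. Library 1 also stood apart from the others by base composition, with lower values for genes of low GC content. In bulk RNA, fewer cells of a type and less RNA per cell cannot be told apart.

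A few of the 10 genes held most of the transcripts. Gpc3, Sdc2, Sdc4 and Gpc6 together made up 84.3%, 90.6% and 91.4% of the summed level per kilobase of the 10 genes in libraries 1, 2 and 3. The means of 8 genes lay above, and those of Gpc5 and Gpc2 below, the median of all genes tested, which was 3.70 CPM per kilobase. By counts, the 10 genes took 0.149% ± 0.033 of all gene counts (SD, n = 3). All 10 passed the filter on low counts.

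**Figure D1:**
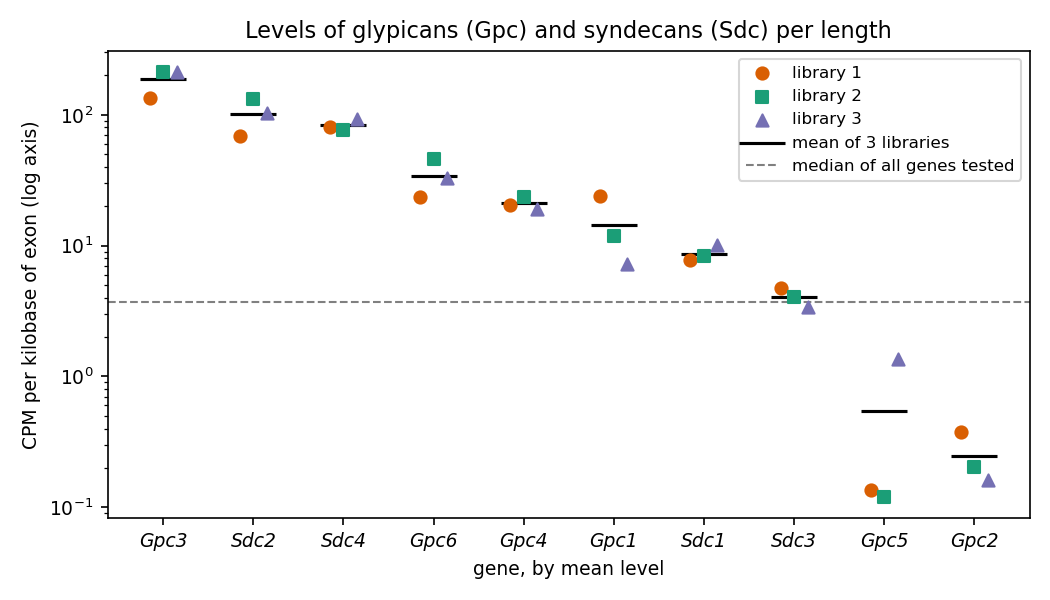
Level of each glypican and syndecan gene in CPM per kilobase of exon, on a log axis, in libraries 1 to 3 (points), with the mean of the 3 libraries (bar) and the median of all genes tested (dashed line at 3.70). Gpc3 lies highest in every library, and the means span from 187 for Gpc3 to 0.248 for Gpc2.

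Gpc3, whose loss causes overgrowth and whose protein binds Hedgehog and Wnt ligands, was the most abundant of the 10 in each library. It stood at 365, 571 and 571 CPM in libraries 1, 2 and 3 (502 ± 119, SD, n = 3). Libraries 2 and 3 were alike and library 1 was lower. Per kilobase of exon the level was 187 ± 44.4 CPM, which placed Gpc3 above 98.3% of 14375 tested genes with a known exon length. The gene (ENSMUSG00000055653.13) lies on the minus strand of chromosome X, 52272426 to 52613950, in GENCODE M21 on GRCm38, the source of all gene positions here. Within the glypicans it held 66.4%, 72.2% and 77.8% of the summed level per kilobase.

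The bases just before the annotated start are shown for the most abundant glypican (Gpc3), for the least abundant syndecan (Sdc3), and for Gpc5, the gene that differed most between libraries. Each window is the 250 bases before the RefSeq start on GRCm38.p6, written 5′ to 3′ on the gene's strand. The windows are chrX:52613975-52614224 (minus) for Gpc3, chr4:130792287-130792536 (plus) for Sdc3 and chr14:115091965-115092214 (plus) for Gpc5. Capitals mark the GC box GGGCGG, a binding motif of Sp family factors, on either strand, the other strand reading CCGCCC.
Gpc3: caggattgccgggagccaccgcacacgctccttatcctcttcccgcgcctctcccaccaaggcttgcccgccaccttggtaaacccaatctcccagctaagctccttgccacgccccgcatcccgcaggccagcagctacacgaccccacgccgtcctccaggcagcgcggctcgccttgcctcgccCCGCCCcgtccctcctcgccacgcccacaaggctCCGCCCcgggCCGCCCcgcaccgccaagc
Sdc3: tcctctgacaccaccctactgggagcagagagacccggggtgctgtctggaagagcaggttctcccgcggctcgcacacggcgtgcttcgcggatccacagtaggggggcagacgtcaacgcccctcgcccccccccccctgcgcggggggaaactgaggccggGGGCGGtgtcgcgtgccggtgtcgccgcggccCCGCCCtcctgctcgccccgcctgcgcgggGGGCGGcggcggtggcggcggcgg
Gpc5: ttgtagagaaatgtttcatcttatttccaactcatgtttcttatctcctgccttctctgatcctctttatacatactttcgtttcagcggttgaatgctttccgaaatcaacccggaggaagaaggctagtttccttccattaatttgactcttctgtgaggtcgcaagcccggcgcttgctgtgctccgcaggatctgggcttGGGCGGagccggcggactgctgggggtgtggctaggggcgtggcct
Gpc3 and Sdc3 each hold 3 GC boxes and Gpc5 holds 1, and 32.7% of 32851 RefSeq windows of this length hold at least 1. The GC content of the windows is 71.6% for Gpc3, 76.4% for Sdc3 and 51.2% for Gpc5, against a median of 52.4% over all windows. Windows were listed for 7 of the 10 genes, and the other 4 of those, Gpc2, Gpc4, Sdc1 and Sdc4, hold between 1 and 4 boxes. Of the windows shown, that of Sdc3 has the highest GC content and as many boxes as that of Gpc3, beside mean levels of 4.04 and 187 CPM per kilobase.

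Gpc4 lies beside Gpc3 on chromosome X (52053021 to 52165252, minus strand), 107173 bases away with 0 protein-coding genes between. It was counted at 54.6, 62.9 and 50.8 CPM (56.1 ± 6.20, SD, n = 3). The 3 libraries were close, with a coefficient of variation of 11.04%. Per kilobase, Gpc3 exceeded its neighbour Gpc4 by 6.58, 8.95 and 11.1 times in libraries 1, 2 and 3.

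Gpc6 and Gpc4 are glypicans that astrocytes release to promote synapse formation. Gpc6, mutated in a human skeletal dysplasia with short limbs, was the second glypican here. It stood at 152, 294 and 210 CPM, or 34.1 ± 11.1 CPM per kilobase (SD, n = 3). Library 2 was highest and library 1 lowest. Gpc6 lies on the plus strand of chromosome 14 (116925315 to 117976544). Its neighbour there is Gpc5 (115092215 to 116525179, plus strand), 400135 bases upstream, also with 0 protein-coding genes between. Gpc6 exceeded Gpc5 per kilobase by 174, 379 and 23.9 times in libraries 1, 2 and 3.

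Gpc1, a glypican of many tissues that binds fibroblast growth factors, was the gene whose rank moved most. It stood at 123, 61.6 and 37.3 CPM (74.0 ± 44.2, SD, n = 3), a 3.30-fold difference between the highest and the lowest library. Library 1 was the highest, where Gpc1 ranked 4 of the 10 genes per kilobase, against 6 in library 2 and 7 in library 3. Its share of the summed glypican level was 11.7% in library 1, 4.06% in library 2 and 2.65% in library 3. In edgeR's goodness-of-fit test across all genes the difference did not pass (adjusted p = 0.53, and 0.026 before adjustment). Without library 1 the fold between the remaining libraries was 1.65. The gene lies on the plus strand of chromosome 1 (92831645 to 92860779). The exons of Gpc1 overlap those of Ankmy1 on the opposite strand, a gene counted at 1, 19 and 11 in the 3 libraries.

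Gpc5 and Gpc2 were the lowest of the 10. Gpc5, known from adult astrocytes, was counted 12, 16 and 158 times, which is 0.607, 0.537 and 6.09 CPM. The exact Poisson 95% intervals, which cover counting error only, were 0.314 to 1.06, 0.307 to 0.873 and 5.18 to 7.12 CPM. Library 3 thus stood alone, 10.6-fold above the mean of the others, and without it the fold between libraries was 1.12. Gpc2, described in developing neurons, was counted 32, 26 and 18 times (1.62, 0.873 and 0.694 CPM). Its Poisson intervals overlapped between neighbouring values, from 1.11 to 2.28 CPM in library 1, 0.570 to 1.28 in library 2 and 0.411 to 1.10 in library 3. Gpc2 lies on the minus strand of chromosome 5 (138273655 to 138280005). Exons of Gpc2 share 2376 of their 4274 bases with Gm43720 on the same strand, so reads there could be set aside as ambiguous. The level per kilobase was taken over all 4274 bases, so the level and last place of Gpc2 may be too low.

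Among the syndecans, Sdc2 and Sdc4 made up most of the family in each library. They lie on chromosome 15 (32920723 to 33034935, plus strand) and chromosome 2 (164424247 to 164443887, minus strand). Sdc2, the syndecan of mesenchymal cells, stood at 241, 470 and 367 CPM (102 ± 32.4 CPM per kilobase, SD, n = 3). Sdc4, a broadly expressed syndecan of focal adhesions, stood at 205, 194 and 236 CPM (83.2 ± 8.55 CPM per kilobase). As counted, Sdc4 had the smallest coefficient of variation of the 10 genes, 10.3%. After removal of GC and length trends its fold between extreme libraries (1.19) was above that of Sdc2 (1.15), and without library 2 it was above that of Gpc4 (1.16 against 1.07). Sdc2 was above Sdc4 in libraries 2 and 3 and below it in library 1, with per-kilobase ratios of 1.75, 1.12 and 0.849, so the order of the pair was not resolved.

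Sdc1, the syndecan of epithelia and plasma cells, was counted at 29.3, 31.7 and 38.2 CPM (8.68 ± 1.21 CPM per kilobase, SD, n = 3). Library 3 was highest. The gene lies on the plus strand of chromosome 12 (8771323 to 8793715). Sdc4 exceeded it per kilobase by 10.5, 9.17 and 9.25 times, a ratio that varied little (9.62 ± 0.72). The B and plasma cell markers, of which 6 of 7 were lowest in library 1 and 5 of 7 highest in library 3, summed to 21.3, 49.7 and 66.5 CPM per kilobase. Of these, Ms4a1 was at 0 in library 1. The plasma cell genes Jchain and Mzb1 were low, at 1.52, 0.034 and 1.503 CPM and at 0.961, 1.68 and 1.002 CPM. Choroid plexus epithelial markers, of which 6 of 6 were lowest in library 1 and 5 of 6 highest in library 3, followed the same order. Markers of the epithelial-like arachnoid barrier summed to 63.0, 55.97 and 61.9 CPM per kilobase. The part of these cells in the Sdc1 level was not tested.

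Sdc3, the syndecan of neurons and glia, was the least abundant, at 28.2, 24.2 and 20.3 CPM (4.04 ± 0.66 CPM per kilobase, SD, n = 3). Library 1 was highest and library 3 lowest. The gene lies on the plus strand of chromosome 4 (130792537 to 130826319). Neuron markers summed to 15.9, 17.3 and 18.0 CPM per kilobase, with 3 of 6 highest in library 1, 2 of 6 highest in library 3, and Nefl at 0 in libraries 1 and 2. Schwann cell markers summed to 812, 751 and 1217, with 5 of 6 highest in library 3. Astrocyte markers summed to 265, 217 and 174, highest in library 1 and lowest in library 3. Of their summed 740, 606 and 516 CPM, Gjb6 alone took 679, 559 and 419, so the sum mainly followed this 1 gene. Of the 6 astrocyte markers, however, 5 were highest in library 3, where Sdc3 was lowest. The part of neurons and glia in the Sdc3 level was not tested.

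**Figure D2:**
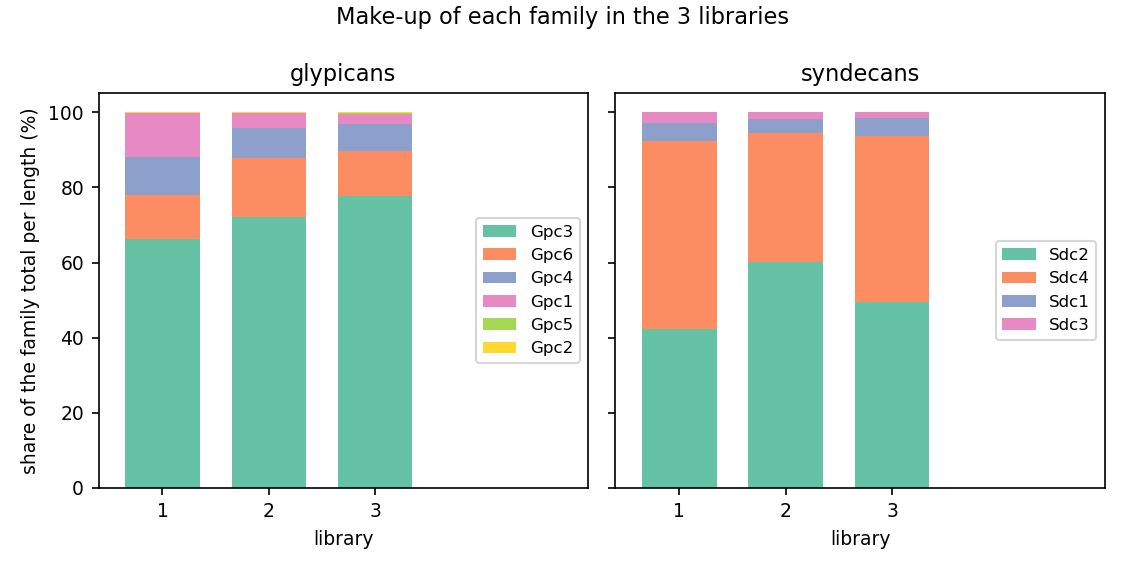
Share of each gene in the summed level per kilobase of its family (percent, stacked to the whole) in libraries 1 to 3, glypicans left and syndecans right. Gpc3 takes 66.4% to 77.8% of the glypicans, while Sdc2 and Sdc4 divide most of the syndecan total.

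The balance between the families varied little between libraries as counted. Summed levels per kilobase were 204, 294 and 273 CPM for glypicans and 161, 222 and 210 CPM for syndecans. Glypicans thus held 55.9%, 57.0% and 56.5% of the total in libraries 1, 2 and 3 (56.5% ± 0.57, SD, n = 3). The log2 ratio of syndecans to glypicans was -0.38 ± 0.03, below 0 in 3 of 3 libraries. With 3 libraries an exact two-sided sign-flip permutation test cannot go below p = 0.25, so none was used. After removal of trends with GC content and exon length the mean stayed at -0.38, but the libraries spread further (-0.15, -0.55 and -0.44, SD 0.21). The ratio depended on the length taken for each gene and was -0.65 with the longest transcript in place of all exons.

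The order of the genes by mean level per kilobase was Gpc3, Sdc2, Sdc4, Gpc6, Gpc4, Gpc1, Sdc1, Sdc3, Gpc5 and Gpc2. Of the 9 neighbouring pairs in this order, 4 were separate, in that all 3 values of the one lay above all 3 of the other. These were Gpc3 over Sdc2 (mean log2 difference 0.90 ± 0.19, SD, n = 3), Sdc4 over Gpc6 (1.33 ± 0.53), Sdc1 over Sdc3 (1.11 ± 0.43) and Sdc3 over Gpc5 (3.83 ± 2.18). The other 5 neighbouring pairs overlapped. Gpc6 was nonetheless above Gpc4 in 3 of 3 libraries (0.64 ± 0.39), whereas Gpc4 was above Gpc1, and Gpc1 above Sdc1, in 2 of 3. Gpc5 was above Gpc2 only in library 3. Without library 1, whose Gpc1 value was highest, 7 of 9 pairs were separate.

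Variation between libraries was tested over the whole table with edgeR's goodness-of-fit test, which asks whether a gene's counts vary more than genes of its abundance do. It called 0.437% of 14409 genes at an adjusted p of 0.05. Of the 10 genes it called 1, Gpc5 (adjusted p = 0.048), and 2, Gpc5 and Gpc1, had an unadjusted p under 0.05, as did 7.04% of all genes tested. The call on Gpc5 was marginal. Its adjusted p was 0.051 with edgeR's relative log expression (RLE) scaling, 0.097 with a minimum count of 5 and 0.29 with no filter on low counts. The adjusted p was 0.070 without library 1, 0.44 without library 2 and 0.998 without library 3. It was 0.0098 after trends with GC content and exon length were removed. The remaining 8 genes each had an adjusted p of 0.9997 in the same edgeR test. The test found only part of the large changes in counts simulated for this comparison over 14409 genes. It recovered 12 of 100 genes changed 4-fold in 1 library and 59 of 100 changed 8-fold. A missed threshold therefore does not show equal levels.

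Other transcripts were also highest in library 3, where Gpc5 was high. Of the astrocyte markers 5 of 6 were highest there. Their summed level (265, 217 and 174 CPM per kilobase) mainly followed Gjb6 alone, at 679, 559 and 419 CPM. Aqp4 stood at 0.556, 0.571 and 4.43 CPM, a step like that of Gpc5, and Gfap at 7.79, 6.38 and 9.36 CPM. All 7 oligodendrocyte and precursor markers were highest in library 3, with sums of 215, 178 and 325 CPM per kilobase, but only 3 of the 7 passed the filter. Mbp (1052, 782 and 1375 CPM) and Cnp (313, 294 and 548 CPM) led this list. In library 3 Mog, Opalin and Olig2 reached only 0.655, 0.385 and 0.231 CPM, and Mog, Olig1 and Olig2 were at 0 in library 2. Schwann cell markers (5 of 6, sums of 812, 751 and 1217) were also highest in library 3. Macrophage and microglial markers (7 of 7) and mural markers (6 of 6, sums of 1057, 850 and 1721) were highest there as well. The part of these cells in the Gpc5 level was not tested.

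The effect of base composition on library 1 was measured over all genes. Genes in the lowest of 10 equal classes of GC content (median 39.9%) had a median log2 difference of library 1 from the mean of libraries 2 and 3 of -1.06 on the log2(CPM + 1) scale, which understates differences of low genes, and genes in the highest class (median 59.4%) of 0.37. Sdc2, with a transcript GC content of 41.6%, had a difference of -0.78, and 0.03 once trends with GC content and exon length were removed. Its highest library was then 1.15-fold above its lowest, where it had been 1.95-fold. Gpc6 (45.7% GC) went from -0.70 to -0.31. Gpc3 (48.0% GC) changed little, from -0.65 to -0.56. It lay at the lower edge of a GC class with a median of -0.02, and the class below had -0.21.

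At the other end, Sdc3 (58.7% GC) had a difference of 0.34 that became 0.03. Gpc1 (59.1% GC) had 1.34, above the 0.37 of its class, and kept 1.01, with a fold between its extreme libraries of 2.74. Sdc1 (55.2% GC) went the other way from its class, at -0.24 and then -0.54. The fold between the extreme libraries was smaller after the removal in 7 of the 10 genes. Its median over the 10 was 1.75 before and 1.44 after, beside 1.72 and 1.54 over all genes tested.

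**Figure D3:**
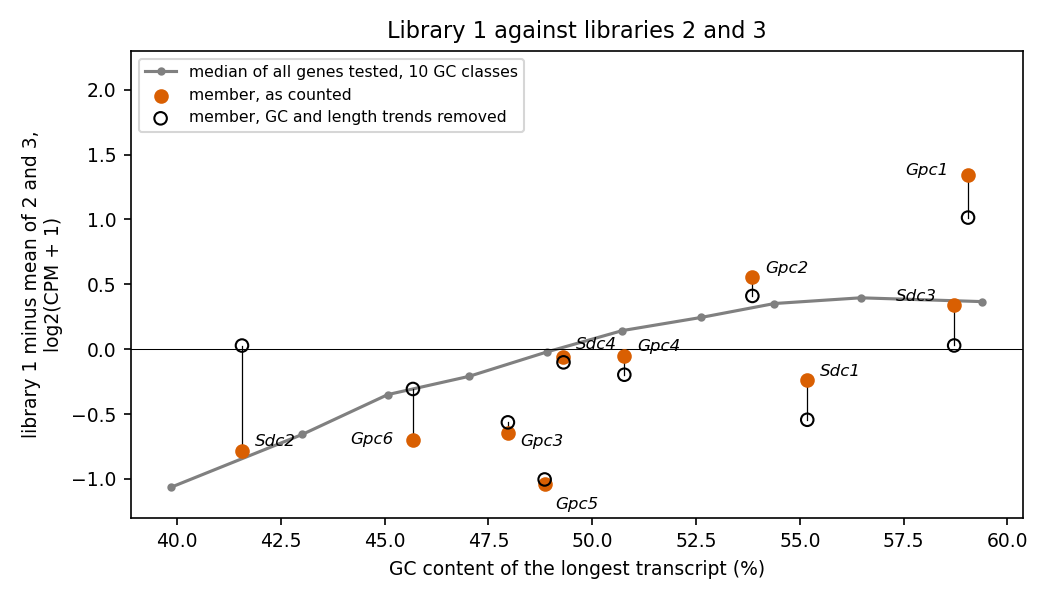
Difference of library 1 from the mean of libraries 2 and 3, in log2(CPM + 1), against the GC content of the longest transcript (percent), for the 10 genes as counted (filled) and after removal of GC and length trends (open), with the medians of all genes tested in 10 GC classes (grey line). Sdc2 moves from -0.78 to 0.03, while Gpc1 moves from 1.34 to 1.01 and Gpc5 moves only from -1.04 to -1.004.

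The genes that build and cut heparan sulfate were described from 6 lists holding 81 genes, of which 70 passed the filter. The goodness-of-fit test called 1 of the 70 variable between libraries, and 6 had an unadjusted p under 0.05, beside 0.437% and 7.04% of all genes tested. Of 12 genes for the linker and for chain polymerisation, all were tested and 0 called in edgeR, 0 also at an unadjusted p under 0.05. Extl2 led them at 27.8 ± 5.82 CPM per kilobase (SD, n = 3), followed by B3gat3 (19.3 ± 7.90), which adds the glucuronic acid of the linker, and Pxylp1 (16.2 ± 6.52), which removes the phosphate from its xylose. The polymerase subunits Ext1 and Ext2 stood at 8.13 ± 1.39 and 9.24 ± 1.14.

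Of 16 genes for the epimerase and the sulfotransferases, 11 were tested and 0 called, again 0 at an unadjusted p under 0.05. Hs3st1, a 3-O-sulfotransferase, led at 28.3 ± 2.02 CPM per kilobase, above Ndst1 (11.1 ± 2.63), which replaces acetyl groups by sulfate, and the epimerase Glce (5.16 ± 2.50). Hs3st1 was steady, at 57.9, 64.8 and 66.4 CPM. Ndst4, Hs6st3 and Hs3st5 had no count in any library, which allows up to 0.152, 0.101 and 0.116 CPM in libraries 1, 2 and 3 (3 counts each).

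Of 11 genes for chain trimming, shedding and cleavage of the anchor, 10 were tested and 1 was called, with 3 at an unadjusted p under 0.05. The others of these were the sheddase Adam10 (25.7, 93.2 and 66.4 CPM, lowest in library 1) and Hpse2. Mmp2 (131 ± 26.2 CPM per kilobase), a gelatinase that can shed syndecans, Sulf2 (125 ± 32.8), which removes 6-O-sulfates from the finished chain, and Mmp14 (35.4 ± 10.6), a membrane-bound protease, were the most abundant. Sulf2 stood at 899, 785 and 524 CPM, and its mean per kilobase lay within 1 SD of that of Sdc2 (102 ± 32.4). Mmp9, another gelatinase, was the gene called, at 88.6, 39.7 and 10.9 CPM (edgeR adjusted p = 0.035), highest in library 1 and lowest in library 3. Mmp9 was not called with plain library totals, with a common dispersion, or when any 1 library was left out. Notum, listed here for a proposed and not settled role in cutting glypican anchors, was near the floor at 0.303, 0.403 and 0.655 CPM. The heparanase Hpse stood at 0.657, 1.88 and 0.385 CPM.

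Other proteoglycans that carry heparan sulfate, always or in part, gave 0 calls in edgeR among 10 tested genes, with 1 at an unadjusted p under 0.05. The part-time proteoglycan Nrp1, a semaphorin and vascular growth factor receptor, led at 56.5 ± 5.33 CPM per kilobase, ahead of Srgn (32.9 ± 7.32), which is carried in secretory granules, and the basement membrane collagen Col18a1 (24.6 ± 8.14). The basement membrane proteoglycans Hspg2 and Agrn stood at 9.71 ± 1.44 and 8.25 ± 1.54. The means of Gpc3, Sdc2 and Sdc4 per kilobase lay above all 10 genes of this list.

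Partners of the syndecan tail had a median level of 3.89 CPM per kilobase, near that of all genes tested, with 7 tested and 0 called in edgeR, and 0 at an unadjusted p under 0.05. Ezr, a linker to the actin cortex, stood at 114 ± 6.07 CPM per kilobase, the syndecan adaptor Sdcbp (syntenin) at 88.2 ± 24.98 and the adaptor Gipc1 at 64.5 ± 10.5. Sdcbp was at 420, 649 and 758 CPM, lowest in library 1. Of 25 genes listed as heparan sulfate binding ligands, 20 were tested and 0 called in edgeR, with 2 at an unadjusted p under 0.05. The listing was by name, and binding was not measured. Igf2 (773 ± 246 CPM per kilobase), the heparin-binding growth factor Mdk (498 ± 341) and its relative Ptn (155 ± 18.5) led, and the chemokine Cxcl12 stood at 133 ± 26.7. Mdk was uneven, at 1178, 455 and 347 CPM, with library 1 apart. Shh and Wnt3a had no count in any library.

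**Figure D4:**
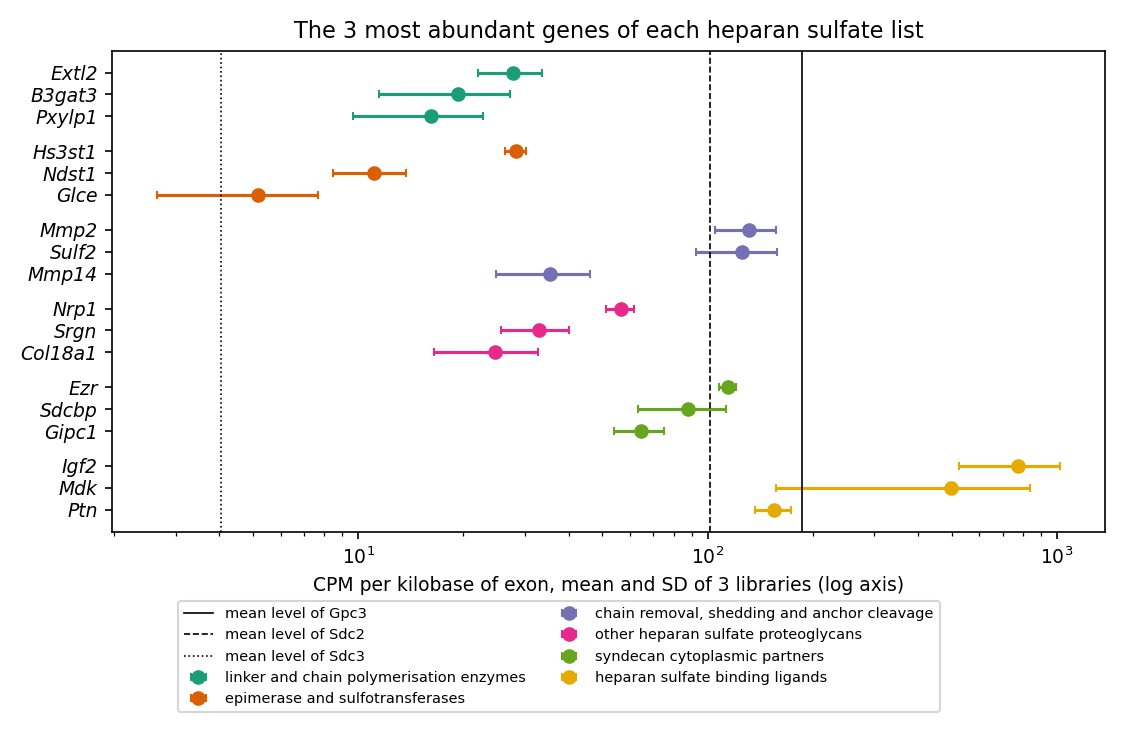
The 3 most abundant genes of each of 6 heparan sulfate lists, as mean and SD of 3 libraries in CPM per kilobase of exon on a log axis, with the mean levels of Gpc3, Sdc2 and Sdc3 as vertical lines. The means of Igf2 and Mdk lie above that of Gpc3, and the means of all 18 genes above that of Sdc3, although the error bar of Glce crosses it.

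The genes whose levels over the 3 libraries lay nearest to those of the leading glypican and syndecan were found by the Euclidean distance of log2(CPM per kilobase + 1). For Gpc3 they were Calu (distance 0.075), a calcium-binding protein of the secretory pathway, Gpx8 (0.11), a peroxidase of the endoplasmic reticulum, and Il33 (0.22), an alarmin. Calu stood at 138, 223 and 215 CPM per kilobase beside 136, 212 and 212 for Gpc3. For Sdc2 they were Slc26a7 (0.11), an anion transporter, Fkbp7 (0.18), a prolyl isomerase, and Atxn10 (0.29). With 3 libraries this likeness describes level more than pattern.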

How the data were processed

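Counts per gene for 3 libraries were analysed as deposited by the authors. Normalized counts are what the labels describe, but the values analysed here are whole numbers with different totals per library and were taken as raw counts. Per the labels' protocols, 2 ng of total RNA was amplified with a template-switching low-input kit (12 cycles) and sequenced as paired 50 bp reads. The submitters' processing notes name HTSeq 0.5.3, DESeq2 1.22.1 and mm10; the aligner, annotation release and strand setting are not given in the sources used here. The 5 counter rows, 39.1% to 45.6% of reads, were left out. Exon lengths, GC content and coordinates are from GENCODE M21 (GRCm38), which matched 98.9% of gene identifiers without their version. GC content is that of the longest transcript. Promoter windows are from RefSeq on GRCm38.p6.

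TMM scaling used edgeR 4.0.16 under R 4.3.3. The filter on low counts was filterByExpr (minimum count 10). Since 1 group leaves the quasi-likelihood test nothing to contrast, the goodness of fit of an intercept-only model at the trended dispersion was tested (chi-square, 2 degrees of freedom, Benjamini-Hochberg over all genes, threshold 0.05) and checked on simulated data. A count of 0 allows 3 counts. PCR reads without molecular identifiers are not independent molecules. GC and length trends were removed by loess (span 0.5) per library. Alternatives were edgeR's relative log expression (RLE) scaling, plain totals, other filters, dispersion, lengths and pseudocounts, and leaving out each library.

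The genes and lists were chosen with earlier results of these data known. Named are all 10 genes, the 3 most abundant of each list, every list gene called variable, and the 3 nearest genes of the leading glypican and syndecan. Ext1, Ext2, Notum, Hpse, Hspg2, Agrn, Cxcl12 and the list genes at 0 were named for their role after their values were seen, as were single cell type markers.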

Additional observations from a re-analysis of the deposited data

Results flagged for a closer look

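Reads that the table assigns to no gene lie outside the gene counts used here. They made up 41.4% of the table's reads as a mean over the 3 libraries. In libraries 1, 2 and 3, reads without a unique alignment were 16.9%, 15.3% and 17.4% of the table's reads. Reads not aligned were 20.1%, 10.7% and 13.2%, and reads aligned to no annotated feature 7.20%, 11.8% and 7.68%. How many of them come from the 10 genes was not tested.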

How the results depend on the processing

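Of the 10 genes, 1 (Gpc5) was called variable, as with plain totals, a common dispersion, or GC and length trends removed. The number was 0 with RLE scaling, no filter, a minimum count of 5 and a mean of at least 10 counts. It was also 0 whichever replicate was left out. In the 6 lists 1 gene (Mmp9) was called; the number was 0 with plain totals and with a common dispersion, and 0 whichever replicate was left out. Over all genes the count of 63 became 134 with no filter, where more genes were tested, 181 with a mean of at least 10 counts and 100 after trend removal; leaving out each replicate, which leaves fewer samples, gave 12 to 28. Where no other cause is named, the cause was not tested. The log2 ratio of syndecans to glypicans (-0.38) was -0.65 with the longest transcript as length and -0.45 with no division by length, and between -0.39 and -0.36 without any single replicate. Separate neighbouring pairs (4) numbered 5 to 7 without any single replicate, which narrows ranges. All 10 genes passed every filter tried. Of 70 alternative values of single-gene levels 69 moved by less than 1 SD, and the other was Gpc2 with a pseudocount of 0.5. Apart from rescaling, a mean without 1 replicate cannot move by 1 SD of the same libraries. Other scalings shift libraries against each other and left the means almost unchanged. The 69 therefore do not show that the levels are robust. No paired analysis was possible because all libraries belong to 1 group. Depth limited genes under about 0.152 CPM, the level of 3 counts in library 1.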
